A study of Mus musculus with 16 samples.

Results

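The Clca genes encode the CLCA proteins, secreted or membrane-anchored zinc metalloproteases that cleave themselves. They were first taken for calcium-activated chloride channels and are now known as modulators of such conductances and, in the case of CLCA1, as a main non-mucin protein of the goblet cell mucus. Clca1, known earlier in mice as gob-5, is a classical marker of intestinal goblet cells. The mouse family was examined here in RNA sequencing of colon epithelium. It was chosen by name, and its 7 members were Clca1, Clca2, Clca3a1, Clca3a2, Clca3b, Clca4a and Clca4b, of 45513 genes in the count files. All 7 passed the filter on low counts, which kept 15841 genes. The annotation also places a pseudogene, Clca4c-ps, within the cluster, and its values are given as those of a non-member.

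Live EpCAM+ cells from the fractionated colon of each of 8 mice were sorted on the reporter, which gave 8 tdTom+ and 8 tdTom- libraries. All mice were, per the methods of the study, homozygous for Atoh1(WT)CreERT2, a tamoxifen-inducible Cre placed behind the coding sequence of the secretory fate factor Atoh1 with no change to that sequence and carried 1 copy of the Rosa26 tdTom reporter on a C57BL/6 background. Tamoxifen was given at 1 mg per day for 3 days, per the labels. Cells that expressed Atoh1 at the time of tamoxifen and in which Cre switched on the reporter, and their progeny, were tdTom+. All other EpCAM+ cells, of whatever type, were tdTom-, with any Atoh1-expressing cells that escaped labelling among them. Age and sex were not given per mouse in the labels. There was no group without Cre or tamoxifen, so that both populations come from treated animals.

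Total counts per library ran from 16482530 to 24218367 in tdTom+ and from 18318172 to 20668605 in tdTom-, apart from the tdTom- library of mouse 4 with 45791503. Mouse 4 also had the lowest mitochondrial share of counts in each population, at 2.23% in tdTom+ and 3.74% in tdTom-, against 4.29% to 6.92% and 6.05% to 9.97% in the other mice. The mouse numbers fall into separate series (mice 1 to 3, mouse 4, mice 5 to 8), and values within the first and the last are given beside each member. The sort was checked on marker genes. All 8 goblet and mucus genes were higher in tdTom+ and all 8 colonocyte genes were lower, and the values are given with the members they resemble. In bulk libraries, fewer cells of a type and less RNA per cell cannot be told apart.

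The 7 members lie side by side on the minus strand of chromosome 3, with no other protein-coding gene between them. The cluster spans 369.8 kb, at chr3:144729677-145099443 in GRCm38. In order of coordinate it holds Clca3a1, Clca3a2, Clca3b, Clca4c-ps, Clca4b, Clca4a, Clca1 and Clca2. The annotated coding transcript of every member has 14 exons. Each coding sequence holds, in frame, the HExxH codons of the zinc site of these proteases, in exon 4. The 50 coding bases around that site are shown because they give the scale on which members can be told apart by a read of 50 bases, the read length used. Capitals mark bases that differ from Clca1.

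Clca1, chr3:145024574-145024623: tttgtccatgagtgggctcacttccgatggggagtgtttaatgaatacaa
Clca2, chr3:145092170-145092219: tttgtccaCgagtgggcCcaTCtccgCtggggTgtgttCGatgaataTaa
Clca3b, chr3:144846413-144846462: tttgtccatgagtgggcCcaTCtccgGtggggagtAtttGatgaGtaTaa
Clca4a, chr3:144969356-144969405: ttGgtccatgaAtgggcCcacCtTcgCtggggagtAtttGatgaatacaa
Clca4b, chr3:144927176-144927225: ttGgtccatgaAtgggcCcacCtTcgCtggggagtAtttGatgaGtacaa

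Clca3a1 (chr3:144758009-144758058) and Clca3a2 (chr3:144816753-144816802) have exactly the letters of Clca3b in this window. Between 8 and 9 of the 50 bases differed from Clca1 in each of the other members. Over the aligned bases of their coding sequences, with gaps left out, Clca3a1 and Clca3a2 were 97.1% identical. Each was 86.7% identical to Clca3b, over 2696 aligned bases of the 3132 coding bases of Clca3b. Clca4a and Clca4b were 96.0% identical. The remaining pairs ran from 56.2% to 63.6%. A stretch within the first exon, coding bases 90 to 139, is letter for letter the same in Clca4a (chr3:144974876-144974925) and Clca4b (chr3:144932361-144932410). It is shown as a read-length window that cannot be assigned to either gene:

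Clca4a and Clca4b: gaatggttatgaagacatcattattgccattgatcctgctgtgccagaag

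The annotated transcripts were then cut into all windows of 50 bases and each window was compared with the other Clca genes. Clca1 and Clca2 had no window within 2 mismatches of another Clca gene. Within 2 mismatches were 71.30% of the windows of Clca3a1, 69.46% of Clca3a2 and 28.09% of Clca3b, all of them within the Clca3 group, and 74.89% of Clca4a and 75.54% of Clca4b, all within the Clca4 group and its pseudogene. Reads of Clca1 and Clca2 are therefore distinct from those of the family, while counts inside the Clca3 group and inside the Clca4 group are uncertain where the aligner had to choose.

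Clca1 and Clca2, the last members of the cluster by coordinate, were higher in tdTom+, and the 5 others were lower. This was 2 members higher and 5 lower at an adjusted p under 0.01 (edgeR quasi-likelihood test, Benjamini-Hochberg adjustment over all genes tested). So many genes differed between these populations that the members' counts have to be read against the background: 25.5% of all genes tested were higher and 25.5% were lower by the same rule, 51.0% together. The sizes of the differences set the members apart from each other. On the log2 scale they ran from -4.71 for Clca4a to 4.14 for Clca2, with a median of -0.65 over the 7 members and of 0.0039 over all genes tested. Of the genes tested, 27 had a more negative log2 fold change than Clca4a and 129 a more positive one than Clca1.

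**Figure D1:**
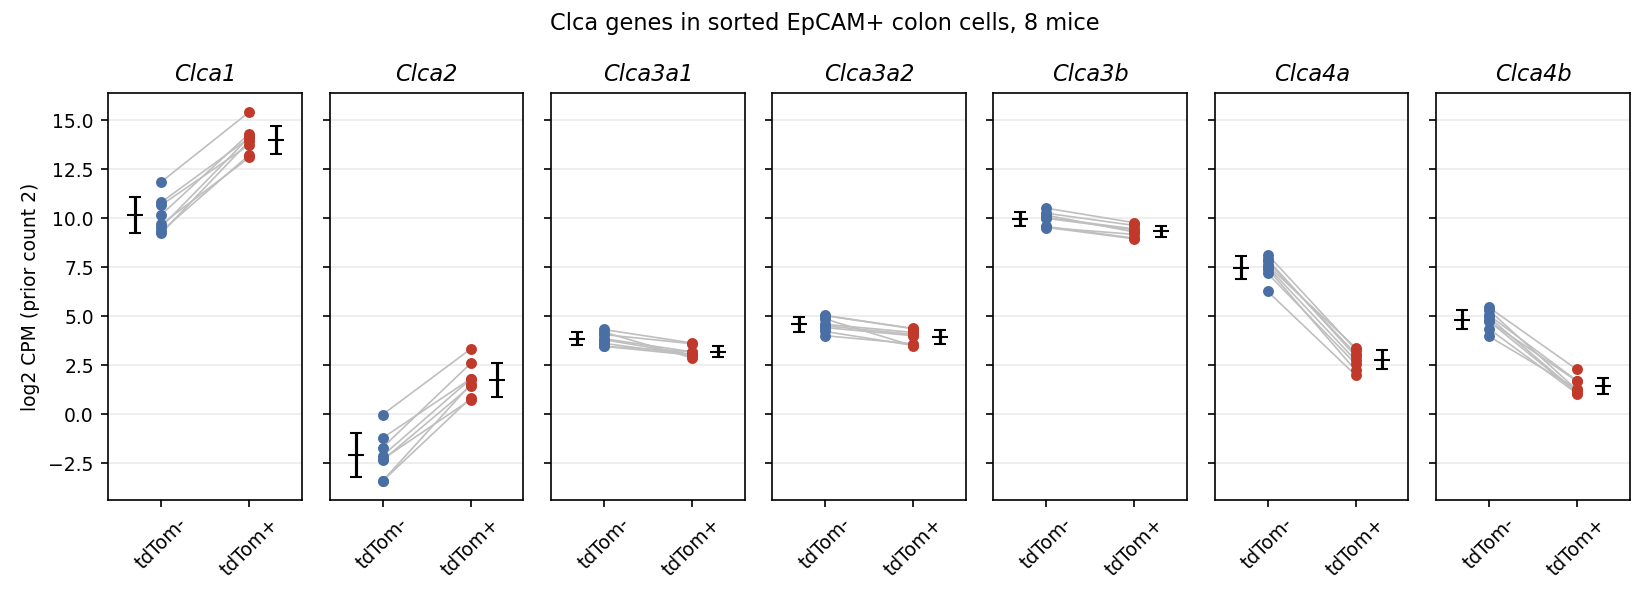
Level of the 7 Clca members in every library, as log2 CPM with a prior count of 2 (y axis), in tdTom- (blue) and tdTom+ (red) cells. Lines join the libraries of 1 mouse, and the bars beside the points are the mean ± SD over 8 mice. Clca1 and Clca2 rise in every mouse from left to right, Clca4a and Clca4b drop in every mouse, and the Clca3 genes drop by less, with overlapping populations.

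Clca1 was among the most abundant transcripts of the labelled cells. Its level in tdTom+ libraries was 8741 CPM (counts scaled to library size) at the lowest, 16493 at the median and 43567 at the highest. In tdTom- libraries the lowest, median and highest were 597.3, 982.6 and 3684 CPM. The populations did not overlap, as was true of 15.2% of genes tested in this direction, and in each mouse the tdTom+ cells held between 8.49 and 26.1 times the level of the tdTom- cells. The log2 fold change was 3.73 ± 0.41 (SE, n = 8 mice, edgeR adjusted p = 9.72e-08). Within mice 1 to 3 it was 4.13 and within mice 5 to 8 it was 3.45. Clca1 took between 0.828% and 3.98% of all counts in tdTom+ libraries and ranked first of all genes in 2 of them. In tdTom- libraries its best place was 20 and its lowest 134.

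The spread of Clca1 between mice was wide. Mouse 7 gave the highest value of both populations. Mouse 2 was lowest in tdTom+ and mouse 1 in tdTom-. Without mouse 7 the log2 fold change was 3.81.

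Clca2, best known from squamous epithelium and as a p53-inducible gene, had the most positive edgeR log2 fold change of the family from some of its smallest counts. Its tdTom+ libraries held 29 to 165 counts, with levels of 1.57 CPM at the lowest, 3.05 at the median and 9.86 at the highest. Its tdTom- libraries held 39 counts in all, and mice 5 and 8 had 0, which allows up to 0.162 and 0.142 CPM (3 counts, counting error only). The highest tdTom- library, that of mouse 7, stood at 0.888 CPM, below every tdTom+ library. The log2 fold change was 4.14 ± 0.53 (edgeR adjusted p = 8.34e-07), with 4.50 within mice 1 to 3 and 3.81 within mice 5 to 8. Clca2 could not be tested under a filter of 10 counts in every library.

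Counts of Clca2 were a small fraction of those of Clca1, its neighbour at 37.5 kb. In tdTom+ libraries Clca2 counts were 0.0166% to 0.0290% of Clca1 counts. In tdTom- libraries they were 0% in mice 5 and 8 and 0.0133% to 0.0241% in the others, and over summed counts the ratio was 0.0208% in tdTom+ and 0.0164% in tdTom-. The tdTom+ over tdTom- difference in log2 CPM was 3.84 for Clca1 and 3.82 for Clca2, and the paired difference of the differences was 0.02 ± 0.86 (SD, 8 mice), with single mice between -1.84 and 0.92 (exact sign-flip permutation test, two-sided, adjusted p = 0.953 over 21 pairs). With single mice so far apart, the test does not show that the changes were equal. The paired difference also depended on the prior count, and was -0.76 with a prior count of 0.5 in place of 2. The squamous markers Krt5, Krt14, Trp63 and Krt13 summed to 0.338 to 8.31 CPM in tdTom+ (median 0.499) and 0.265 to 1.37 CPM in tdTom- (median 0.732). None of the 4 reached the level needed for a test. Krt13, singled out after its values were seen, was higher in tdTom+ in all 8 mice, at 0.389 ± 0.183 CPM against 0.0959 ± 0.128 CPM. The others were not, with Krt5 higher in 2 mice, Krt14 in 1 and Trp63 in 1. Of all genes tested, 25.4% were higher in tdTom+ in all 8 mice, but these genes passed the filter on low counts and Krt13 did not. Whether the low Clca2 counts have a source other than Clca2 transcripts of these cells was not tested.

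**Figure D2:**
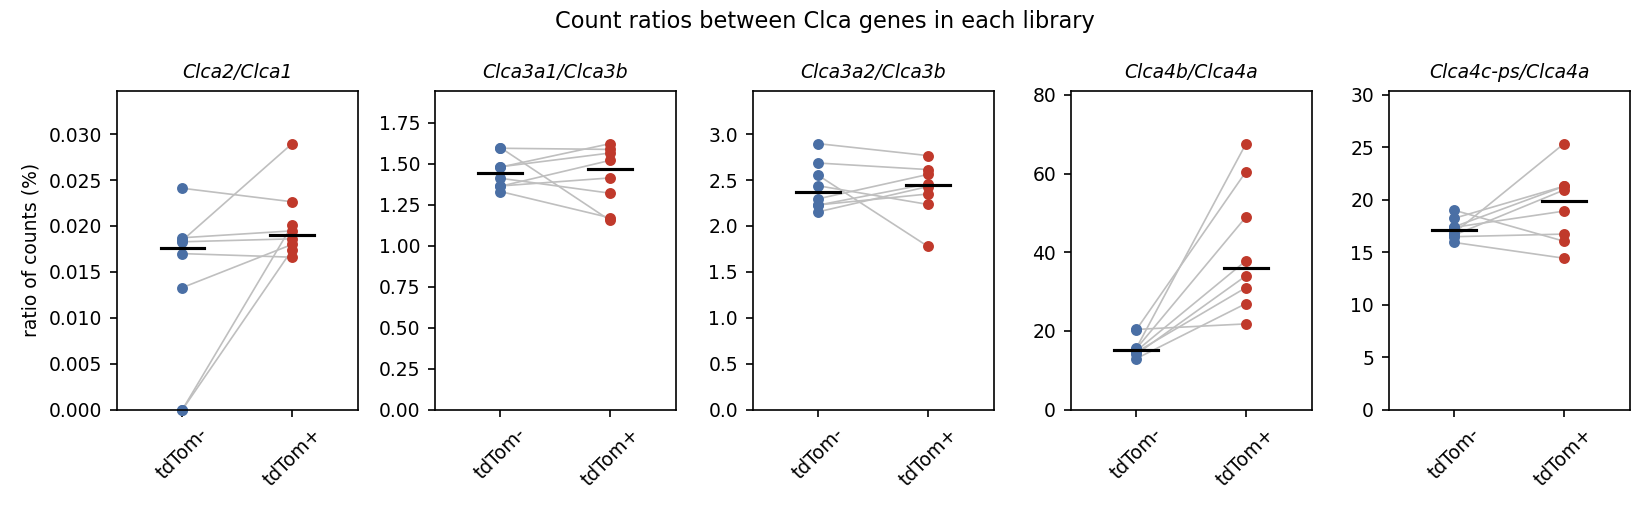
Ratio of counts between Clca genes in every library, in percent (y axis, starting at 0), for tdTom- (blue) and tdTom+ (red) cells. Lines join the libraries of 1 mouse and black bars are medians of 8 libraries. Clca2 lies at 0.0133% to 0.0290% of Clca1 apart from the 2 tdTom- libraries with 0 counts. Clca3a1 lies at 1.15% to 1.62% of Clca3b and Clca3a2 at 1.78% to 2.90%, each ratio being higher in tdTom+ in 4 of 8 mice. Clca4b over Clca4a is higher in tdTom+ in each of the 8 mice.

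Clca4a and Clca4b were the members most depleted from labelled cells. Clca4a, which is known from absorptive enterocytes, was at 76.6 CPM at the lowest, 188 at the median and 280.5 at the highest in tdTom-. In tdTom+ it was at 3.87, 7.12 and 10.4 CPM, and the populations did not overlap, like 15.3% of genes tested in this direction. The log2 fold change was -4.71 ± 0.24 (edgeR adjusted p = 8.39e-13). It was -4.92 within mice 1 to 3 and -4.61 within mice 5 to 8.

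Clca4b ran from 15.6 through a median of 28.7 to 43.5 CPM in tdTom-, and from 1.97 through 2.30 to 4.75 CPM in tdTom+. Again no tdTom+ library reached the lowest tdTom- library. The log2 fold change was -3.42 ± 0.22 (edgeR adjusted p = 2.23e-11), with -3.44 within mice 1 to 3 and -3.51 within mice 5 to 8. The pseudogene Clca4c-ps went with them, at a median of 32.8 CPM in tdTom- and 1.48 CPM in tdTom+ and a log2 fold change of -4.53 ± 0.25 (edgeR adjusted p = 1.64e-12).

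The depletion of Clca4a was larger than that of Clca4b in all 8 mice. The paired difference in log2 CPM change was -1.30 ± 0.58 (SD), ranging from -2.12 to -0.14 (exact sign-flip permutation test, two-sided, p = 0.00781, the smallest that 8 mice can give, adjusted p = 0.00965). In counts, Clca4b was 13.0% to 20.4% of Clca4a in tdTom- and 21.8% to 67.6% in tdTom+. Clca4c-ps stayed at 15.9% to 19.0% of Clca4a in tdTom- and at 14.4% to 25.4% in tdTom+. Since 20.95% of the windows of Clca4a occur unchanged in Clca4b and 23.59% in Clca4c-ps, part of the counts of the 3 genes cannot be divided between them, and the effect of that on the difference was not tested.

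The Clca3 group differed least between populations. Clca3b, by far its most abundant gene, was at 732.5 CPM at the lowest, 1026 at the median and 1452 at the highest in tdTom-. In tdTom+ the lowest, median and highest were 490.6, 650.8 and 867.9 CPM, so that the populations overlapped. Within each of the 8 mice, though, tdTom+ was lower, by 1.28 to 1.81 times. Of all genes tested, 26.0% were lower in tdTom+ in all 8 mice. The log2 fold change was -0.63 ± 0.15 (edgeR adjusted p = 0.0010). Within mice 1 to 3 it was -0.68 and within mice 5 to 8 it was -0.55.

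Clca3a1 and Clca3a2 behaved alike at lower levels. The median of Clca3a1 was 14.1 CPM in tdTom- (10.8 to 19.8) and 8.54 CPM in tdTom+ (7.21 to 12.3), with a log2 fold change of -0.67 ± 0.14 (edgeR adjusted p = 3.40e-04). Clca3a2 had medians of 23.2 CPM in tdTom- (15.9 to 32.6) and 16.3 CPM in tdTom+ (11.1 to 20.6), with a log2 fold change of -0.65 ± 0.16 (edgeR adjusted p = 0.0017). Both were lower in tdTom+ in all 8 mice, with overlapping populations. Within mice 1 to 3 the log2 fold changes were -0.88 and -0.84, and within mice 5 to 8 they were -0.50 and -0.51. Within mice 5 to 8 alone the adjusted p-values were 0.019 for Clca3a1, 0.046 for Clca3a2 and 0.016 for Clca3b by the same edgeR test. These are above the threshold of 0.01, and 2 members in place of 5 were then called lower. That fit has no mouse term, and in each of these mice all of these genes were lower in tdTom+. A fit paired by mouse was not run within this series.

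The changes of the 3 Clca3 genes could not be separated from each other. In pairs they differed by at most 0.04 log2 units on average, with single mice between -0.51 and 0.20 (exact sign-flip permutation tests, adjusted p = 0.811 to 0.911). Clca3a1 counts were 1.15% to 1.62% of Clca3b counts over all 16 libraries, and Clca3a2 counts were 1.78% to 2.90%. The 2 together came to 3.82% of Clca3b in tdTom+ and 3.80% in tdTom-, over summed counts. Of the windows of Clca3b, 6.68% occur unchanged in Clca3a1 or Clca3a2. How many of the reads counted for Clca3a1 and Clca3a2 came from Clca3b transcripts was not tested, and their values are uncertain for that reason.

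Of the 21 pairs of members, 17 differed in their change between populations at an adjusted p under 0.05 (exact sign-flip permutation tests). The 4 that did not were Clca1 with Clca2 and the 3 pairs inside the Clca3 group. The changes that could be told apart were therefore those of Clca1 and Clca2 (higher), of the Clca3 genes (lower by under 1 log2 unit), of Clca4b and of Clca4a (lowest).

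**Figure D3:**
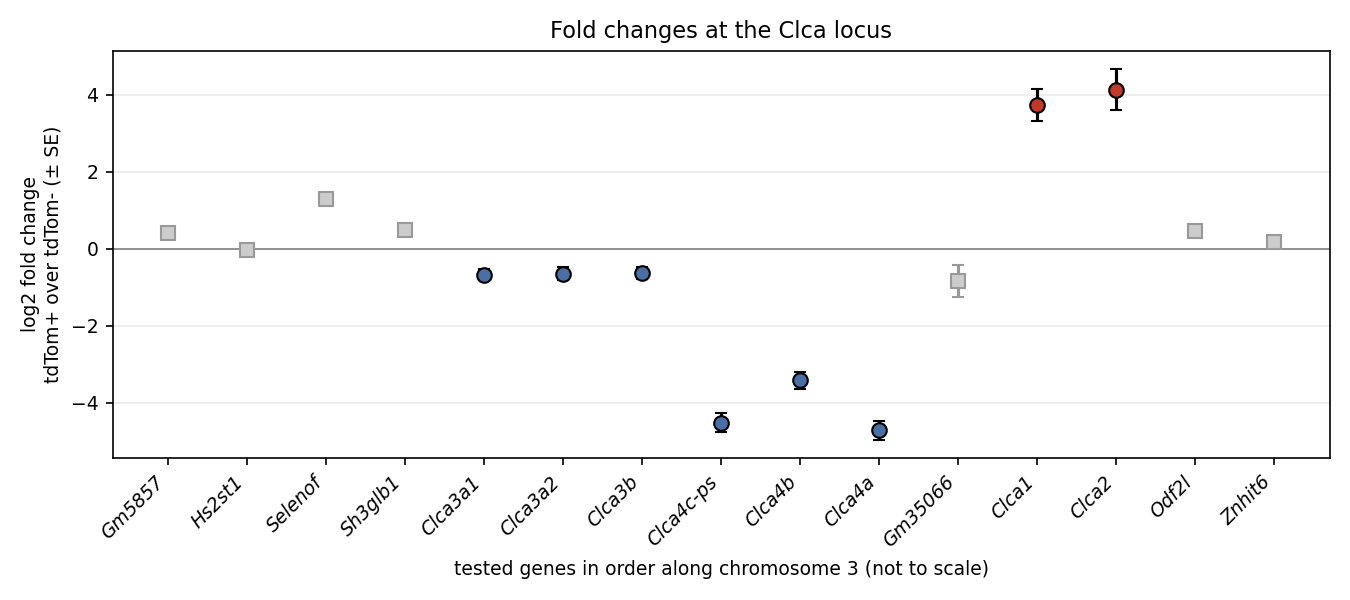
Log2 fold change of tdTom+ over tdTom- with its SE (y axis, edgeR, 8 mice) for the Clca genes (circles, red higher and blue lower) and the other tested genes within 500 kb (grey squares), in their order along chromosome 3 with equal spacing. Neighbouring Clca genes share a direction, which turns between Clca4a and Clca1, while the tested genes outside the cluster stay between -0.03 and 1.30.

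The direction turned once along the cluster, between Clca4a and Clca1, whose annotated ends lie 28.8 kb apart. Within 500 kb of the cluster 22 other genes are annotated, of which 7 were tested. Of these, 4 were higher in tdTom+, namely Selenof at a log2 fold change of 1.30 ± 0.08, Sh3glb1 at 0.50 ± 0.05, Odf2l at 0.47 ± 0.12 and the pseudogene Gm5857 at 0.42 ± 0.12 (edgeR adjusted p = 1.03e-11, 6.46e-09, 0.00193 and 0.00414). By the same rule, 25.5% of all genes tested were higher. Sh3glb1, a membrane-curving protein of autophagy, and Odf2l, a centriolar protein, are the nearest protein-coding genes on either side. Hs2st1 (-0.03), Znhit6 (0.18) and the long non-coding RNA Gm35066 (-0.84 ± 0.43, edgeR adjusted p = 0.0943) did not pass. Gm35066 overlaps the 5′ end of Clca4a on the opposite strand and runs on towards Clca1. It had 52 counts in tdTom+ and 113 in tdTom- over 8 libraries each.

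Compared per length, Clca1 held most of the summed level of the family in labelled cells, while the tdTom- cells held a mixture. On the RPKM scale (CPM per kilobase of exonic length), Clca1 had a median level of 4367 in tdTom+, followed by Clca3b at 193.6, and the 2 did not overlap. Clca3a2 (4.09), Clca4a (2.37) and Clca3a1 (2.19) came next, with overlapping levels between neighbours. Clca4b (0.766) and Clca2 (0.656) came last and overlapped too. In tdTom- cells Clca3b (median 305.3) and Clca1 (260.2) shared the top with overlapping levels, each above the other in 4 of 8 libraries. Clca4a followed at 62.6 without overlap, then Clca4b at 9.58, Clca3a2 at 5.84 and Clca3a1 at 3.61, and Clca2 was last at 0.0263.

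Clca1 made up 95.4% ± 1.32 (SD, n = 8) of the summed RPKM of the family in tdTom+, with a lowest library of 93.6% and a highest of 97.9%. In tdTom- its share was 44.7% ± 15.2, from 26.8% in mouse 1 to 69.4% in mouse 7. The share was higher in tdTom+ in all 8 mice, by 50.7 percentage points on average and by 28.5 to 68.7 in single mice (exact sign-flip permutation test, two-sided, p = 0.00781). Its direction follows from the changes of the members given above, so the test is not separate evidence. Clca3b held 42.8% ± 12.9 of the family in tdTom- and 4.41% ± 1.24 in tdTom+, and Clca4a 9.62% ± 5.25 and 0.0607% ± 0.0374. The summed level of the family was 748.2 ± 289 RPKM in tdTom- and 5065 ± 2926 RPKM in tdTom+.

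**Figure D4:**
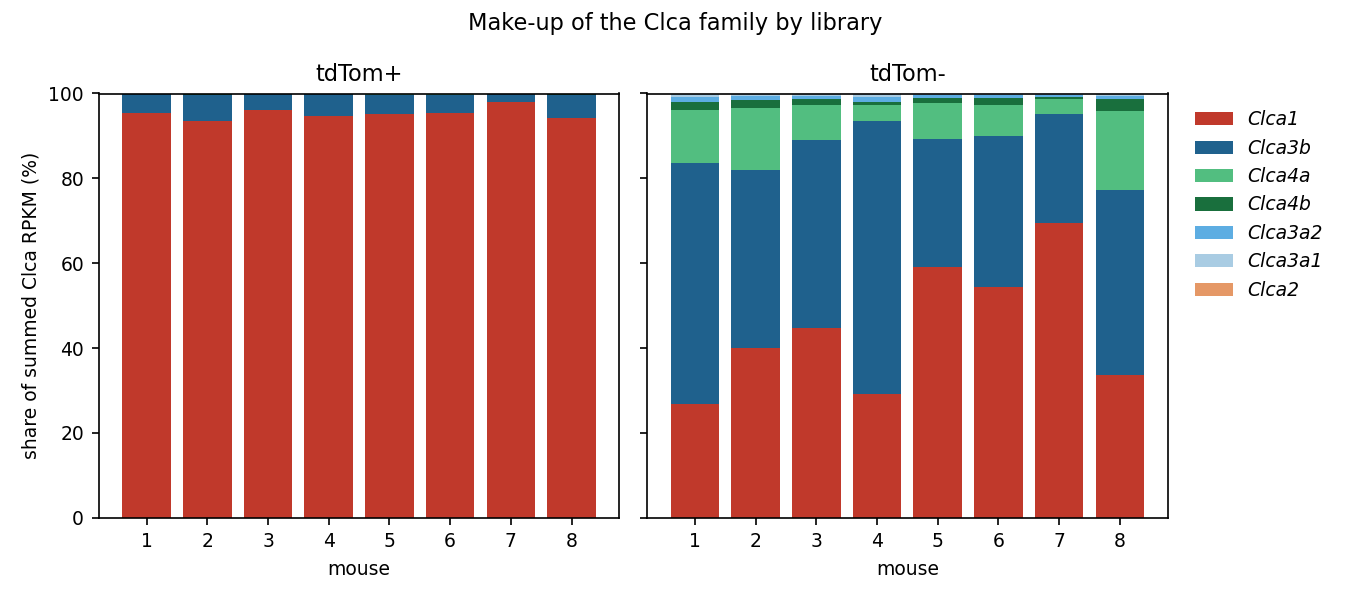
Share of each member in the summed RPKM of the Clca family (y axis, percent) in each of 8 mice (x axis), for tdTom+ (left) and tdTom- (right) cells. Clca1 (red) fills 93.6% to 97.9% of every tdTom+ library, whereas Clca3b (dark blue) and Clca4a (light green) take a large and variable part of the tdTom- libraries.

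The goblet and mucus genes gave the nearest comparison for Clca1. All 8 were higher in tdTom+ with a median log2 fold change of 4.27, led by Spink4, a goblet cell peptide (5.03 ± 0.28, edgeR adjusted p = 2.47e-12), and Muc2, the gel-forming mucin (4.61 ± 0.22, edgeR adjusted p = 2.63e-13). The level of Clca1 in tdTom- was 3.83% to 11.8% of that in tdTom+ cells of the same mouse, with a median of 7.59%. For the 8 goblet genes this residual level ran from a median of 2.83% for Spink4 to 7.70% for Zg16, a lectin of the mucus. Their summed level was 1538 to 5216 CPM in tdTom- and 41873 to 65315 CPM in tdTom+. The part of unlabelled goblet cells in the tdTom- level of Clca1 was not tested.

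Across all 16 libraries, the profile closest to Clca1 was that of Fcgbp, which encodes another abundant protein of goblet cell mucus. The root mean square difference between the gene-centred log2 CPM profiles was 0.225, among 15841 genes compared. Next were 9530053A07Rik (0.227) and 9030619P08Rik (0.367). For Clca3b the closest profiles were those of Clca3a1 (0.147) and Clca3a2 (0.162), with the limit on their counts given above, and then Noxa1 (0.196), an activator of NADPH oxidase.

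The colonocyte genes gave the comparison for the Clca4 genes. All 8 were lower in tdTom+ with a median log2 fold change of -4.55, led by the water channel Aqp8 (-5.18 ± 0.19, edgeR adjusted p = 5.59e-15) and the carbonic anhydrase Car4 (-4.98 ± 0.17, edgeR adjusted p = 2.50e-15). The level of Clca4a in tdTom+ was 2.69% to 5.36% of that in tdTom- cells of the same mouse and that of Clca4b 5.73% to 15.0%. The medians were 3.69% and 9.64%, against medians between 2.92% for Aqp8 and 28.0% for the sulfate transporter Slc26a2. The summed colonocyte level was 585.9 to 875.9 CPM in tdTom+ and 6352 to 12207 CPM in tdTom-. Whether the remaining Clca4 counts in tdTom+ came from colonocytes in the sort was not tested.

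**Figure D5:**
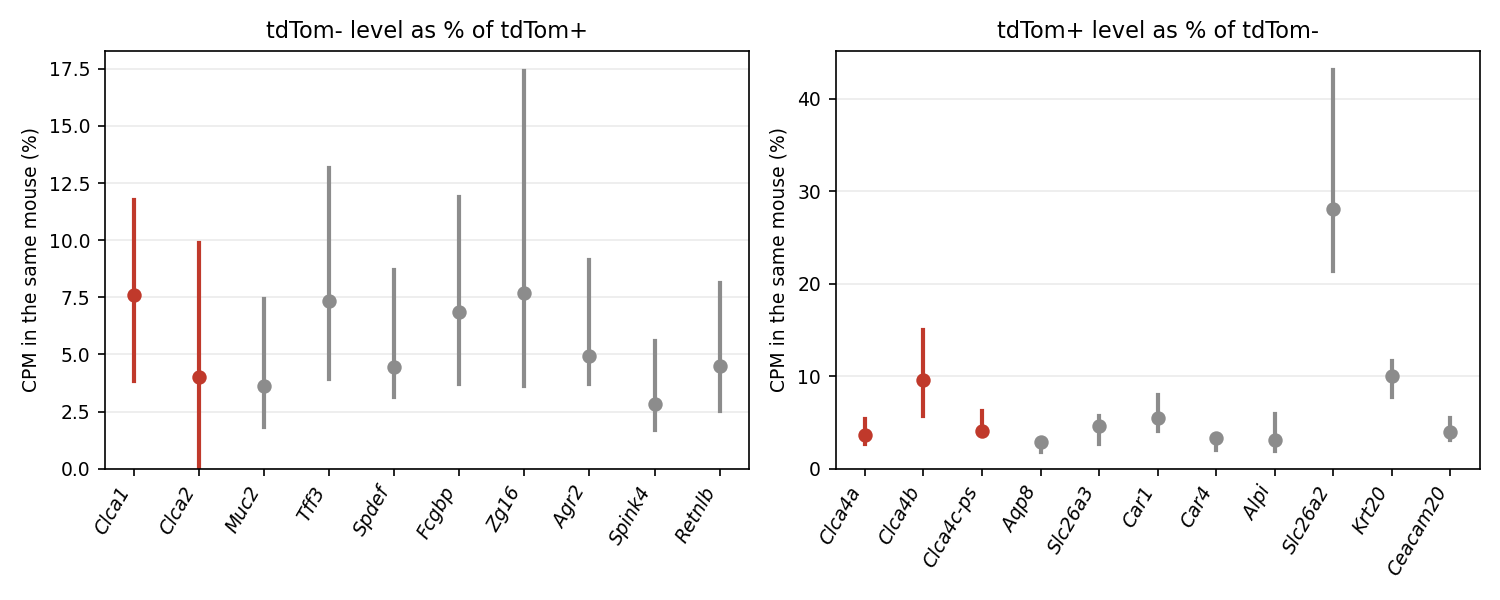
Level in the population where a gene is low, as percent of the level in the other population of the same mouse (y axis, CPM ratio starting at 0), for Clca genes (red) and marker genes (grey). Dots are medians and lines the lowest to highest of 8 mice. Clca1 lies among the goblet genes at 3.83% to 11.8% (left), and Clca4a among the colonocyte genes at 2.69% to 5.36%, with Clca4b above it (right).

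Genes of anion conductance, the process in which CLCA proteins were first described, did not move as one group. Of 16 listed genes 10 were tested, of which 3 were higher in tdTom+ and 6 lower, with a median log2 fold change of -0.38. Over all genes tested, 25.5% were higher and 25.5% lower by the same rule. Best2, a bestrophin anion channel of colonic goblet cells, had a log2 fold change of 4.47 ± 0.25 and Ano7 of 3.96 ± 0.13 (edgeR adjusted p = 3.07e-12 and 1.47e-15). Clcn2, a chloride channel of the surface epithelium, was lowest at -2.72 ± 0.10, followed by the scramblase Ano6 at -1.15 ± 0.16 (edgeR adjusted p = 4.48e-15 and 2.99e-06). The remaining tested gene was Ano1, the calcium-activated chloride channel that CLCA1 is known to stabilise at the cell surface. It is named because it was the only one that did not pass, and its levels were 126.5 ± 12.3 CPM in tdTom+ and 106.8 ± 39.3 CPM in tdTom- (log2 fold change 0.25 ± 0.17, edgeR adjusted p = 0.203).

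Among 6 genes of mucus processing and CLCA binding, 5 were lower in tdTom+ and 1 was higher. The lower ones included Mep1a, a subunit of the meprin proteases (-3.89 ± 0.13, edgeR adjusted p = 1.27e-15), and Tgm3, a transglutaminase (-3.84 ± 0.27, edgeR adjusted p = 7.50e-11). The higher one was Klk1, tissue kallikrein, at 2.88 ± 0.11 (edgeR adjusted p = 1.50e-14). Among all genes tested, 25.5% were lower and 25.5% higher.

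Markers of other cell types moved as well. All 5 enteroendocrine genes were lower in tdTom+, with Chga at 93.6 ± 31.2 CPM in tdTom+ against 746.1 ± 251.2 CPM in tdTom- and Chgb at a log2 fold change of -2.29 ± 0.22. They summed to 273.5 to 727.9 CPM in tdTom+ and 1290 to 3717 CPM in tdTom-. Of 5 tuft cell genes 3 were lower, among them Il17rb (-1.36) and Trpm5 (-0.93), and of 4 stem and cycling genes 2 were lower, Ascl2 (-0.79) and Lgr5 (-0.71). With the mouse as a replicate block in the edgeR fit, Mki67 (adjusted p = 6.03e-05), Top2a (adjusted p = 9.34e-07) and the tuft cell gene Avil (adjusted p = 0.00312) passed as well, which made 4 of 4 stem and cycling genes and 4 of 5 tuft cell genes lower. Of 5 general epithelial genes 4 were lower and 1 higher, with Krt8 at -1.08, Cdx2 at -0.65 and Krt18 at 0.68. Immune markers summed to at most 9.49 CPM in tdTom+ and 17.0 CPM in tdTom-, with 2 of 5 tested and Ptprc lower (-1.52), and Cd3e and Cd79a averaged under 0.1 CPM. Stromal and endothelial markers summed to at most 5.59 and 8.26 CPM, with 2 of 5 tested and both lower, Pecam1 (-1.58) and Acta2 (-0.41). These calls are from the same edgeR test at an adjusted p under 0.01, by which 25.5% of all genes tested were lower and 25.5% higher. The part of each cell type in the levels of the Clca genes was not tested.

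Levels in the tdTom- and tdTom+ cells of the same mouse were correlated for some members by Pearson's r, and for none of the 7 by Spearman's rho after adjustment. Over 8 mice, the log2 CPM of Clca3b in tdTom- and in tdTom+ had Pearson's r = 0.93 (exact permutation p = 0.00124, adjusted p = 0.00868 over 7 members) and Spearman's rho = 0.86 (exact permutation p = 0.0107, adjusted p = 0.0593). Without the 2 mice farthest from the median tdTom- level, r was still 0.93. For Clca4a r was 0.82 (exact permutation p = 0.00605, adjusted p = 0.0212) and rho 0.81 (exact permutation p = 0.0218, adjusted p = 0.0593), with r = 0.59 without the 2 farthest mice. For Clca2 r was 0.81 (exact permutation p = 0.0162, adjusted p = 0.0377) and rho 0.79 (exact permutation p = 0.0254, adjusted p = 0.0593), and r dropped to 0.41. For Clca1 r was 0.75 (exact permutation p = 0.0355, adjusted p = 0.0621) and rho 0.48 (exact permutation p = 0.243, adjusted p = 0.284), and r dropped to 0.24. Leaving out the 2 farthest mice also narrows the range of levels. How far the relations of Clca1, Clca2 and Clca4a rest on those mice is therefore not settled. For Clca3a1, Clca3a2 and Clca4b, r ran from 0.48 to 0.62 with exact permutation p-values above 0.1. Each series of mouse numbers holds too few mice for a correlation of its own.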

How the data were processed

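Per the file headers, the authors made the deposited counts with featureCounts 1.5.0-p1, on exons per gene, reverse strand, from primary alignments, which include those of reads with several matches. The submitters' processing notes name TopHat2 2.1.1, Subread 1.5.2 and GRCm38. Symbols and coding sequences came from GENCODE M21, whose coordinates equal the deposited ones for the 8 Clca genes, and 44585 of 45513 genes had a symbol.

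The main test was edgeR's quasi-likelihood test (version 4.0.16, R 4.3.3) after filterByExpr and TMM, with no mouse term and an adjusted p under 0.01. The SE was derived from the log2 fold change and F. CPM and RPKM used TMM library sizes, and log2 CPM a prior count of 2. Pairs of members, and the Clca1 share, were tested by exact sign flips over mice. Same-numbered libraries come from 1 animal, per the titles, and their deviations correlated at 0.223 to 0.408. On simulated data for this comparison (15730 genes tested), edgeR recovered 99 of 99 genes changed by 3 log2 units and 85 of 98 changed by 1, with 0 false calls. The simulation changed far fewer genes than the 51.0% called in the real data, in equal numbers up and down. Its counts came from the model and dispersions that edgeR fits, so it does not measure the false calls of the real comparison. No 2 libraries of a group agreed within counting noise (chi-square per gene of at least 11.7).

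Named were the members, genes within 500 kb, the closest profiles and the 2 largest calls per direction of each marker list. Members, lists and tests were chosen with earlier results of these data known, and count ratios and correlations between populations after seeing the values. Alternatives were the mouse as a block, DESeq2 1.42.0, limma-voom 3.58.1, other normalizations and filters, thinned libraries, mice left out and each series of mice. Small intestinal libraries are not analysed here.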

Additional observations from a re-analysis of the deposited data

Results flagged for a closer look

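The within-mouse log2 difference of Clca3a1 was -1.31 in mouse 1, far below the other 7 mice, which ran from -0.75 to -0.27. For Clca3a2 the difference was again farthest in mouse 1, at -1.37 against -0.72 to -0.41 in the others. These stood apart by the gap between the most extreme mouse and its nearest neighbour, measured against the whole range of 8. Of 24 sets of 8 values examined for the 8 Clca genes, 2 stood apart, and chance gives about 1.2. The counts of both genes rest in part on windows shared with each other, so that they are not 2 separate cases.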

How the results depend on the processing

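With the mouse as a replicate block (paired fit), the log2 fold changes were 3.83 for Clca1, 4.20 for Clca2, -0.66 for Clca3a1, -0.64 for Clca3a2, -0.62 for Clca3b, -4.71 for Clca4a and -3.43 for Clca4b, and no call on a member changed. In the marker lists the block changed the calls of Mki67, Top2a and Avil, which then passed, and no other. Of 227 alternative values for the main results, 220 were rated unchanged, by direction and call for fold changes and by size for counts of genes, members or pairs. Among them, the members' fold changes at an adjusted p under 0.05 came from the main fit itself and could not change. With mice 1 to 3 only, 2546 genes were higher and 2559 lower, against 4032 and 4042. Under a filter of 10 counts in every library 1 member was called higher, because Clca2 was not tested. With mice 5 to 8 only and no mouse term, 2 members were called lower, and Clca3a1 (-0.50), Clca3a2 (-0.51) and Clca3b (-0.55) no longer passed. With mice 1 to 3 only, they passed at -0.88, -0.84 and -0.68. The within-mouse log2 difference of Clca3a1 was -1.31 in mouse 1 against -0.60 and -0.67 in mice 2 and 3. That of Clca3a2 was -1.37 in mouse 1 against -0.72 and -0.44. The cause of the difference between the series was not tested. The uncalled difference between Clca1 and Clca2 was -0.76 with a prior count of 0.5, and -0.11 to 0.28 with each mouse left out. Those inside the Clca3 group were -0.04 to 0.03 (Clca3a1 against Clca3a2), -0.06 to 0.02 (Clca3a1 against Clca3b) and -0.05 to 0.05 (Clca3a2 against Clca3b). Depth limits Clca2 in tdTom- cells most, with at most 17 counts in a library.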
